A study of Mus musculus with 20 samples.

Results

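Ptx3 and 9 genes of the NF-kappaB pathway were described in fibroadipogenic progenitors of mice with and without a pancreatic tumour. The 10 genes were Ptx3, Nfkbia, Nfkbie, Nfkbiz, Bcl3, Nfkb1, Nfkb2, Relb, Tnfaip3 and Birc3, and they were taken by symbol from 24394 symbols shared by 3 deposited count tables. They were picked with results of these libraries in view, on their differences between tumour-bearing and control libraries and between control groups. Those differences are therefore given for the 10 genes as description, with no p-value. All 10 passed the filter on low counts in each comparison.

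NF-kappaB is a family of transcription factors whose dimers are held in the cytoplasm by inhibitors of the IkB family. Signals from TNF, interleukin-1 and Toll-like receptors free the dimers, which then switch on inflammatory genes together with the genes of their own inhibitors, so that the response limits itself. Ptx3, the long pentraxin, is a secreted pattern recognition protein that stromal cells make in response to such signals, and it also takes part in hyaluronan-rich matrix. Fibroadipogenic progenitors are resident mesenchymal cells of skeletal muscle that serve repair and can form fibrous tissue and fat.

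The study followed these cells in pancreatic cancer cachexia, the muscle wasting that accompanies the tumour. Male C57BL/6J mice gave the hindlimb muscle, from which live, nucleated cells were sorted that were negative for CD31, CD45 and α7-integrin and positive for SCA-1. The KPC groups had received 2000000 KPCY cells, a mouse pancreatic cancer line, in 50 µL into the pancreas. Sham-operated mice were the controls. Day 14 had 3 control libraries and 4 of KPC, day 21 had 3 of each, and day 26 had 4 of control and 3 of KPC, all labelled as biological replicates. For ages and for pooling of animals the labels state nothing.

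The 20 libraries held 12944751 to 26434933 counts each. Pdgfra and Ly6a, the defining progenitor markers, stood at 1194 to 1672 and 525 to 1465 CPM (the counts of a gene scaled to library size), so the labelled cell type was present in each library. Pecam1 (CD31) was at 4.52 to 24.7 CPM in controls and 12.6 to 241 CPM in KPC libraries, and Ptprc (CD45) did not exceed 5.73 CPM. Each library has a code that begins with a number of unstated meaning. No number was common to the control and KPC libraries of day 14, nor to those of day 21, so the code and the treatment cannot be told apart there. At day 26, control replicates 1 to 3 and KPC replicates 1 and 2 carried 227, control replicate 4 carried 235 and KPC replicate 3 carried 226. KPC replicates 1 and 2 of day 26 stood apart from replicate 3: their summed level over 12 progenitor markers was 41154 and 69468 CPM, against 113227 CPM in replicate 3 and 108750 to 129008 CPM in the day 26 controls. Pdgfra and Ly6a, within the ranges given above, are a small part of that sum, so its fall lies in more abundant genes of the list. Results at day 26 are therefore also given without replicate 3 and within code 227. Control groups of different days differ in day and code together, and these cannot be told apart. In bulk libraries of sorted cells, fewer cells of a type and less RNA per cell cannot be told apart either.

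The promoter sequences below are shown because the kappaB site, the DNA element that NF-kappaB dimers bind, is the feature most often looked for in this gene set. RefSeq (GRCm38.p6) supplied windows from 250 bases before to 50 bases after the start for 7 of the 10 genes, and not for Nfkb1, Nfkbiz and Relb. Capitals mark matches to the kappaB consensus, searched on both strands, and overlapping matches are run together. Nfkbia, Nfkbie and Tnfaip3 are shown over the 140 bases before the RefSeq start. Ptx3 and Bcl3 have their match at the RefSeq start and are shown over 30 bases around it. For Ptx3 the GENCODE start used below, 66219910, lies beyond the stretch shown, so on that annotation the match is upstream of the start. The bases after the RefSeq start of Ptx3 were not found in a GENCODE transcript. On the minus strand, Tnfaip3 and Bcl3 begin at 19015657 and 19822770 in GENCODE, so the stretches shown for them lie inside those genes. A second RefSeq window of Tnfaip3 held no match.
Ptx3, chr3:66219876-66219905, plus strand: cccaaatccaGGGGAACTCCCtcgcgctgt
Nfkbia, chr12:55492648-55492787, minus strand: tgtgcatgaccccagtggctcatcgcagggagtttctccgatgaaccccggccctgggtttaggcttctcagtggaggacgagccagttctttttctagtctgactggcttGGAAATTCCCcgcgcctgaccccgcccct
Tnfaip3, chr10:19015411-19015550, minus strand: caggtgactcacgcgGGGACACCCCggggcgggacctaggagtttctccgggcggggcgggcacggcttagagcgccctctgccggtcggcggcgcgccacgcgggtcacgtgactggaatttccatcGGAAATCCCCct
Bcl3, chr7:19822734-19822763, minus strand: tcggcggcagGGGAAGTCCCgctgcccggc
Nfkbie, chr17:45555560-45555699, plus strand: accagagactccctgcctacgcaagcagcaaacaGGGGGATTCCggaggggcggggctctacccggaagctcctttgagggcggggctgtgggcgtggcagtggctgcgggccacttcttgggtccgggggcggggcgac

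A kappaB match lay in a window of 6 of the 7 genes, namely Ptx3, Nfkbia, Nfkbie, Bcl3, Nfkb2 and Tnfaip3, and in none for Birc3. Over all 27025 genes with RefSeq windows, 5.14% had a match, and 23 of 72 other NF-kappaB pathway genes with windows had one. Counting from the start as base 0, matches began at base -29 for Nfkbia, at -106 for Nfkbie, at -125 and -12 for Tnfaip3, at -39, -38 and -11 in the Nfkb2 window with the most matches, at -1 and 0 for Ptx3 and at 2 for Bcl3. The AP-1 motif TGANTCA was found in 3 of the 7 genes (Nfkbie, Nfkb2 and Tnfaip3) against 8.97% of all genes, and the STAT motif TTCNNNGAA in Nfkb2 alone against 9.55%. A match is a description of the letters and not evidence of binding. Nfkb2, whose level moved little in most libraries, had matches as well as Ptx3, whose level moved most.

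On the mm10 annotation (GENCODE vM21) Ptx3 lies on chromosome 3 at 66219910 to 66225805 on the plus strand, inside the gene Veph1 on the minus strand, and shares no exon with it. Relb and Bcl3 are both on chromosome 7, 179 kb apart. Exons of Bcl3 overlap Gm16175, and exons of Nfkb2 overlap Psd and AC114539.1, in each case on the opposite strand. The library kit keeps strand, and no source used here says whether the counting used it, so counts of Bcl3 and Nfkb2 could include reads of those neighbours. Per kilobase of exon, Nfkbia was the most abundant of the 10, with group means of 74.0 to 495 CPM per kb. Ptx3 ranged from 3.42 to 65.7 CPM per kb, Nfkbiz from 9.52 to 71.6 and Tnfaip3 from 4.92 to 54.9. The subunit genes were steadier, at 9.67 to 11.7 CPM per kb for Nfkb1, 8.14 to 11.1 for Nfkb2 and 5.23 to 6.95 for Relb. Nfkbie was the least abundant, at 2.04 to 3.98 CPM per kb.

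**Figure D1:**
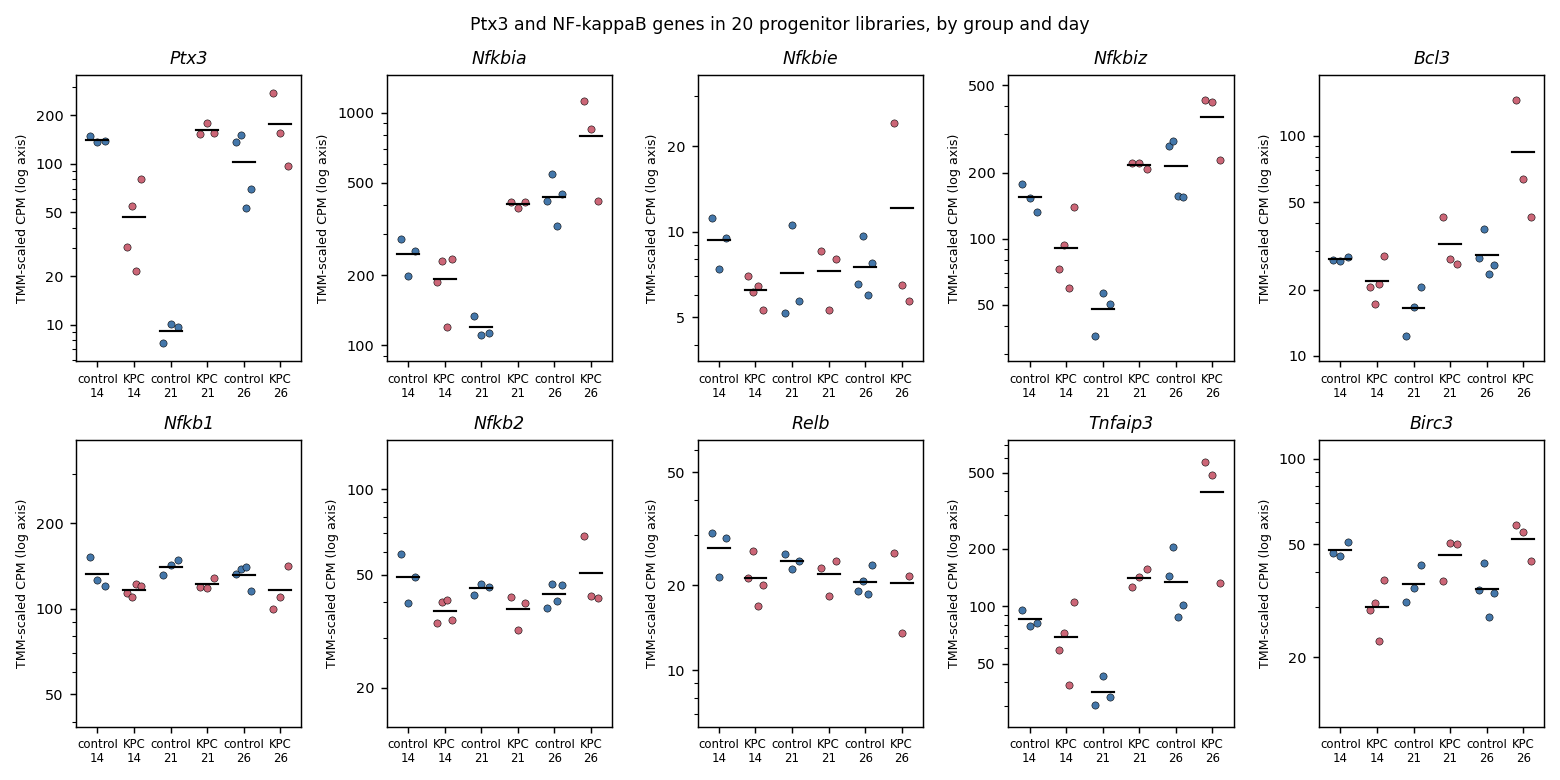
Level of each of the 10 genes in the 20 libraries, as TMM-scaled CPM on a log axis whose range differs between panels, for control (blue) and KPC (red) groups at days 14, 21 and 26. Points are libraries and bars are group means; Ptx3 in day 21 controls sits at 7.68 to 10.1 CPM, below its level in each of the other 17 libraries.

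Ptx3 was the gene of the set with the widest range. CPM values, scaled by TMM over all 20 libraries, were 149, 136 and 138 in the day 14 controls and 30.3, 54.4, 21.5 and 80.7 in the day 14 KPC libraries. The KPC libraries all lay below the controls at that day, with a log2 difference of -1.57 ± 0.45 (SE). At day 21 the order was turned round: controls had 7.68, 10.1 and 9.71 CPM and KPC libraries 152, 180 and 155 CPM, a log2 difference of 4.14 ± 0.14 (SE). The day 21 groups were far apart. Their KPC mean of 162 CPM (SD 15.1, n = 3) stood beside a day 14 control mean of 141 CPM (SD 6.88, n = 3), while the day 21 control mean was 9.18 CPM (SD 1.31, n = 3). At day 26 controls had 137, 151, 52.7 and 70.1 CPM and KPC libraries 276, 155 and 97.4 CPM. Those groups overlapped, with a log2 difference of 0.79 ± 0.45 (SE), which was 0.30 without KPC replicate 1 and 1.07 without KPC replicate 3. Ordered by mean, Ptx3 was highest in KPC at day 26 (176 CPM), followed by KPC at day 21, controls at day 14, controls at day 26 (103 CPM), KPC at day 14 (46.7 CPM) and controls at day 21 (9.18 CPM). Among neighbours in that order, KPC at day 21 lay wholly above controls at day 14, KPC at day 14 lay wholly above controls at day 21, and the other neighbours overlapped.

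Nfkbia encodes IkB-alpha, the inhibitor that is remade first after NF-kappaB activation. Its CPM values were 285, 198 and 254 in controls and 187, 229, 120 and 236 in KPC libraries at day 14. The groups overlapped, with a log2 difference of -0.33 ± 0.22 (SE). Day 21 controls had 134, 111 and 113 CPM and KPC libraries 412, 387 and 414 CPM, so every KPC library was above every control and the log2 difference was 1.76 ± 0.11 (SE). Day 26 controls had 415, 542, 324 and 445 CPM and KPC libraries 1121, 849 and 418 CPM. KPC replicates 1 and 2 were above all controls there and replicate 3 was among them, giving 0.89 ± 0.33 (SE), or 1.18 ± 0.22 (SE) without replicate 3. Nfkbie, which encodes IkB-epsilon, did not follow this course: its libraries lay between 5.16 and 11.2 CPM except for KPC replicate 1 of day 26, at 24.2 CPM. The log2 difference of Nfkbie was -0.58 ± 0.21 (SE) at day 14, with groups that did not overlap, 0.04 ± 0.32 at day 21 and 0.71 ± 0.51 at day 26. Without KPC replicate 1 the day 26 value was -0.30.

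Nfkbiz and Bcl3 encode atypical IkB proteins that act in the nucleus, where they help p50 or p52 dimers switch on a subset of targets. Nfkbiz stood at 178, 153 and 132 CPM in controls and 72.7, 93.4, 59.7 and 139 CPM in KPC libraries at day 14, a log2 difference of -0.75 ± 0.27 (SE). Only KPC replicate 4 reached the range of the controls. At day 21 Nfkbiz was at 36.0, 56.8 and 50.5 CPM in controls and 222, 221 and 207 CPM in KPC libraries, which is 2.18 ± 0.15 (SE) on the log2 scale with no overlap. At day 26 the values were 265, 279, 157 and 154 CPM against 430, 420 and 227 CPM, with overlap through KPC replicate 3 and a log2 difference of 0.75 ± 0.31 (SE). Without that library it was 0.98 ± 0.26 (SE). Bcl3 was lower in level. Its controls had 27.4, 26.9 and 28.1 CPM at day 14, 12.3, 16.7 and 20.5 CPM at day 21, and 27.7, 37.7, 23.5 and 25.9 CPM at day 26. In KPC libraries Bcl3 stood at 17.3 to 28.6 CPM at day 14, at 43.0, 27.6 and 26.0 CPM at day 21, and at 146, 63.5 and 42.6 CPM at day 26. The KPC libraries lay wholly above the controls at days 21 and 26, with log2 differences of 0.96 ± 0.23 (SE) and 1.57 ± 0.40 (SE), and overlapped them at day 14 (-0.31 ± 0.16). The day 26 value was 0.89 without KPC replicate 1.

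The subunit genes among the 10 moved little. Nfkb1, whose product p105 is trimmed to the p50 subunit, ranged from 99.6 to 152 CPM over all 20 libraries. At day 21 its controls had 132, 143 and 149 CPM and the KPC libraries 119, 119 and 128 CPM, which did not overlap, yet the log2 difference was only -0.21 ± 0.10 (SE). At day 26 Nfkb1 was at 99.6 and 110 CPM in KPC replicates 1 and 2 and at 141 CPM in replicate 3, against 116 to 140 CPM in controls. The log2 difference was -0.16 ± 0.16 (SE), and -0.34 ± 0.13 (SE) without replicate 3. Nfkb2, the precursor of p52, ran from 31.8 to 58.9 CPM apart from KPC replicate 1 of day 26 at 68.5 CPM. Its log2 differences were -0.39 ± 0.14 (SE) at day 14, -0.25 ± 0.13 at day 21 and 0.26 ± 0.21 at day 26, the last falling to -0.03 without KPC replicate 1. Relb, the partner of p52 in the alternative pathway, ran from 13.5 to 30.5 CPM. Its control and KPC libraries overlapped at all 3 days, with log2 differences of -0.34 ± 0.17 (SE), -0.15 ± 0.16 and 0.01 ± 0.23. Rela, which encodes the p65 subunit and is not among the 10, was at 69.2 to 146 CPM, with log2 differences of -0.38 ± 0.11, 0.11 ± 0.11 and 0.43 ± 0.14 (SE). The adjusted p-values of Rela by edgeR with Benjamini-Hochberg adjustment were 0.11, 0.56 and 0.089.

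Tnfaip3 and Birc3 encode enzymes that edit ubiquitin chains in receptor complexes. Tnfaip3 (A20) removes activating chains and ends the signal. Its controls had 95.0, 79.0 and 81.9 CPM at day 14 and 30.4, 42.9 and 33.4 CPM at day 21. KPC libraries had 59.2, 72.3, 38.6 and 106 CPM at day 14 and 125, 141 and 156 CPM at day 21. The groups overlapped at day 14 (-0.29 ± 0.30 on the log2 scale, SE) and were fully apart at day 21, by 1.98 ± 0.14 (SE). At day 26 Tnfaip3 showed the clearest division within a group: KPC replicates 1 and 2 were at 572 and 485 CPM, and replicate 3, at 133 CPM, was within the 87.3 to 205 CPM of the controls. The log2 difference was 1.57 ± 0.49 (SE), and 1.97 ± 0.31 (SE) without replicate 3. Birc3 (cIAP2) is a ubiquitin ligase of the TNF receptor complex. At day 14 it was at 46.5, 45.5 and 50.9 CPM in controls and at 29.3, 31.0, 22.8 and 37.4 CPM in KPC libraries, a log2 difference of -0.64 ± 0.14 (SE) with no overlap. At day 21 Birc3 was at 31.4 to 42.4 CPM in controls and 37.1 to 50.5 CPM in KPC libraries (0.33 ± 0.16), and at day 26 at 27.7 to 43.1 and 43.7 to 58.4 CPM (0.60 ± 0.18). The day 26 groups of Birc3 were separated by less than 1 CPM.

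**Figure D2:**
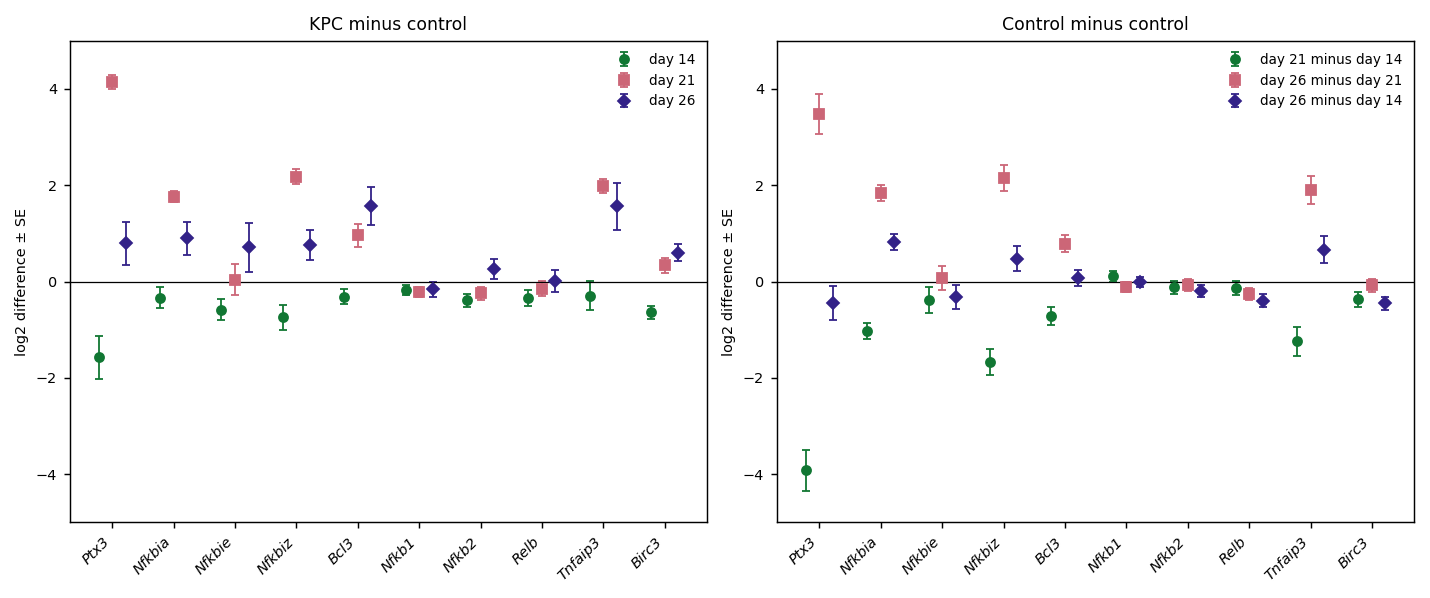
Log2 differences with their SE for the 10 genes: KPC minus control at days 14, 21 and 26 on the left, and control minus control between days on the right. Ptx3 stands at -1.57, 4.14 and 0.79 on the left and at -3.92, 3.47 and -0.45 on the right, while Nfkb1, Nfkb2 and Relb stay between -0.40 and 0.26 in both panels.

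Read by day, the KPC libraries of day 14 were lower for all 10 genes, with a median log2 difference of -0.36 against 0.01 over the 13344 genes tested. Birc3 alone passed an adjusted p of 0.05 (edgeR), where 1.12% of all genes did, and 3 of 10 (Ptx3, Nfkbie and Birc3) had groups that did not overlap, where 13.3% of genes did. Birc3 lost that call when any of the 3 controls or KPC replicates 1, 2 or 3 was left out. Without KPC replicate 4, 3 of the 10 passed, where 1.93% of all genes did. DESeq2 called Ptx3, Nfkbiz and Birc3, and 4.5% of all genes. At day 21 the median was 0.65 against 0.01 over all genes. Ptx3, Nfkbia, Nfkbiz, Bcl3 and Tnfaip3 passed, 5 of 10, where 12.5% of all genes did, and 7 of 10 (these with Nfkb1 and Nfkb2, which were lower) had groups that did not overlap, where 33.1% of genes did. Bcl3 was not called when all 20 libraries were fitted together, and the other 4 were, where 3.08% of all genes were. At day 26 the median was 0.73 against 0.00, and by edgeR 0 of 10 genes passed, as did 0.0% of all genes. An unadjusted p under 0.05 was found for 5 of 10, and for 4508 of all 13157 genes tested. Groups did not overlap for 2 of 10 (Bcl3 and Birc3), where they did not for 29.1% of genes. DESeq2 called 4 of the 10 at day 26 (Nfkbia, Bcl3, Tnfaip3 and Birc3), where it called 21.6% of all genes. Without KPC replicate 3, and equally within code 227, 6 of 10 passed (Nfkbia, Nfkbiz, Bcl3, Tnfaip3, Birc3 and, lower, Nfkb1), where 51.6% and 47.1% of all genes did. The KPC effect of 3 genes (Ptx3, Nfkbia and Nfkbiz) differed between days 14 and 21 in the fit of all 20 libraries, where 0.644% of all genes did, and that of 6 (these with Bcl3, Tnfaip3 and Birc3) between days 14 and 26, where 14.3% did. Since the genes were chosen on these contrasts, nothing is read from the counts.

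Levels in control libraries also differed between days, most of all for Ptx3. The 3 comparisons below share control samples, and each is given with its own values. From day 14 to day 21 the controls were lower for Ptx3 by -3.92 ± 0.43 (SE) on the log2 scale, for Nfkbiz by -1.67 ± 0.28, for Tnfaip3 by -1.24 ± 0.30, for Nfkbia by -1.03 ± 0.17 and for Bcl3 by -0.72 ± 0.19. These 5 of 10 passed an adjusted p of 0.05 in edgeR, where 23.4% of all genes did, and the other 5 lay between -0.38 and 0.11. Groups did not overlap for these 5 and Birc3, where they did not for 37.3% of genes. Without control replicate 1 of day 21 the count was 3. From day 21 to day 26 the controls were higher by 3.47 ± 0.42 (SE) for Ptx3, 2.15 ± 0.27 for Nfkbiz, 1.91 ± 0.29 for Tnfaip3 and 1.84 ± 0.17 for Nfkbia. These 4 passed, where 0.478% of all genes did, and Bcl3, at 0.79 ± 0.18, did not. Groups did not overlap for these 4 and Bcl3, where they did not for 13.0% of genes. The count of 4 was 1 without control replicate 1 or 3 of day 21, 2 without control replicate 2 of that day, and 5 by DESeq2, which called 2.08% of all genes. Tnfaip3 lost its call in the fit of all 20 libraries (1.92 ± 0.43, SE), which called the other 3. Between day 14 and day 26 Nfkbia was higher at the later day by 0.82 ± 0.16 (SE), Relb lower by -0.40 ± 0.13 and Birc3 lower by -0.45 ± 0.14, 3 called of 10 where 22.3% of all genes were. Groups did not overlap for Nfkbia and Birc3, where they did not for 30.6% of genes. The count was 1 without control replicate 1 or 3 of day 14 or control replicate 1 of day 26, and 2 without replicate 2 or 3 of day 26. Ptx3 controls of those days overlapped (-0.45 ± 0.35). Mean control levels thus spanned 15.4-fold for Ptx3, 4.47-fold for Nfkbiz, 3.78-fold for Tnfaip3 and 3.62-fold for Nfkbia, against 1.07-fold for Nfkb1.

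Over all 20 libraries the highest value was 35.9 times the lowest for Ptx3, 18.8 times for Tnfaip3, 11.9 times for Nfkbiz and for Bcl3, and 10.1 times for Nfkbia. It was 4.69 times for Nfkbie, 2.56 for Birc3, 2.26 for Relb, 2.15 for Nfkb2 and 1.53 for Nfkb1. The median SD of log2 CPM was 0.32 over the 10637 genes whose mean log2 CPM reached 2. The SD of Ptx3, 1.55, was larger than that of 99.6% of these genes, and the SD of Nfkb1, 0.16, larger than that of 5.51%. For Tnfaip3, Nfkbiz, Nfkbia and Bcl3 that share was 93.4% to 98.0%, for Nfkbie 82.6%, for Birc3 61.2%, for Relb 38.7% and for Nfkb2 31.3%. The subunit genes were thus the steadiest of the set.

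**Figure D3:**
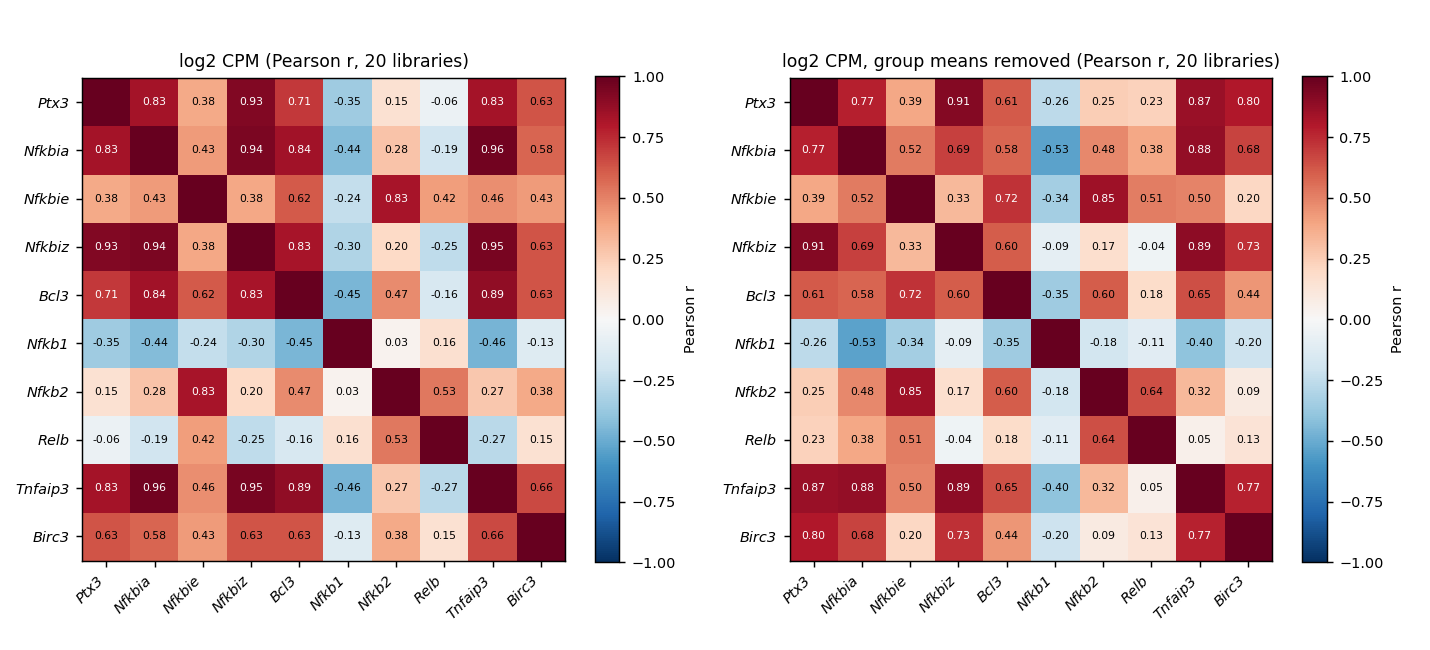
Pearson correlation of log2 CPM between the 10 genes over 20 libraries, as measured (left) and after the mean of each of the 6 groups was removed (right). Ptx3, Nfkbia, Nfkbiz and Tnfaip3 form a block at 0.83 or more on the left and 0.69 or more on the right, and Nfkb1 lies between -0.46 and 0.16 with the other 9 genes on the left.

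Ptx3 went with Nfkbiz over the 20 libraries at a Pearson r of 0.93, with Tnfaip3 and with Nfkbia at 0.83, with Bcl3 at 0.71 and with Birc3 at 0.63. It did not go with the subunits, at -0.35 for Nfkb1, 0.15 for Nfkb2 and -0.06 for Relb. After the mean of each group was removed, r with Ptx3 was 0.91 for Nfkbiz, 0.87 for Tnfaip3, 0.80 for Birc3, 0.77 for Nfkbia and 0.61 for Bcl3. A library that was high for Ptx3 within its own group thus tended to be high for these genes as well. Nfkbie paired with Nfkb2 instead, at 0.83 and 0.85. The libraries share day, code and treatment, so these values describe them and carry no p. Of 10301 other genes, those most like Ptx3 were Il6 and Tnfaip6, both at 0.96, then Dnajb4, Cxcl1, Ptgs2, Has1, Ccl7 and Gas5, at 0.91 to 0.85. With group means removed they were Tnfaip6 at 0.95, Csrnp1, Atf3, Il6, Zfp36, Gem, Tiparp and Adamts1, the last at 0.84. Il6 stood at 2.36 CPM in day 21 controls (SD 0.757, n = 3), against 38.8 CPM in day 21 KPC libraries (SD 2.09, n = 3).

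Genes that rise when tissue is dissociated moved with part of the set. The summed level of 14 such immediate-early and heat-shock genes, among them Fos, Jun, Egr1, Atf3 and Hspa1a, ran from 7360 to 8784 CPM in the controls of day 14, whose KPC libraries had 7686, 8501, 6149 and 14065 CPM. KPC replicate 4, the highest, also had the highest Ptx3, Nfkbiz and Tnfaip3 of its group. In the controls of day 21 the sum was 10319 to 11449 CPM, against 20464 to 23453 CPM in KPC, where 10 of the 14 were called higher and Hspa1a and Hspa1b lower. For day 26 it was 13845 to 19545 CPM (control) and 22774 to 37553 CPM (KPC). With group means removed, r with the log2 sum was 0.85 for Nfkbiz, 0.77 for Tnfaip3, 0.76 for Ptx3, 0.65 for Nfkbia and 0.63 for Birc3, against -0.09 for Nfkb1 and -0.12 for Relb. Between control groups the order differed by pair. The sum of each day 21 control was above that of each day 14 control, and its Ptx3 was lower. The sum of each day 26 control was above that of each day 21 control, and its Ptx3 was higher. The part of tissue handling in the results was not tested.

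Marker sums of several other cell types were also higher in KPC libraries, in each of them at day 14 and in some at days 21 and 26. Over 14 macrophage and monocyte genes, none of them at 0 in a whole group, the sum at day 14 was 18.1 to 24.3 CPM for control and 25.2 to 58.3 CPM for KPC. At day 21 it was 17.2 to 33.3 CPM in controls and 111, 47.5 and 26.2 CPM in KPC libraries, and at day 26 it was 20.6 to 30.6 CPM in controls and 521, 47.8 and 28.1 CPM in KPC libraries. The sum over 12 endothelial genes, again with none at 0, was 416 to 494 and 567 to 749 CPM at day 14, 558 to 593 and 526 to 1027 CPM at day 21, and 390 to 563 and 338 to 1139 CPM at day 26. At day 14 the sums of glial (73.2 to 148 against 26.0 to 48.5 CPM), mural (695 to 845 against 470 to 644 CPM), satellite cell (63.9 to 86.5 against 49.2 to 58.2 CPM) and neutrophil genes (4.81 to 8.60 against 0.200 to 2.33 CPM) lay above the controls in each KPC library as well. Overlap with the controls was seen at day 14 for tenocyte (786 to 1808 against 627 to 1028 CPM) and myofibre genes (109 to 322 against 30.5 to 124 CPM). It was also seen for lymphocyte genes (0.716 to 6.11 against 0 to 0.760 CPM). Sums are led by a few abundant genes. Gene by gene, 8 of 12 endothelial genes were called higher and 1 lower at day 21, with 11 above 0 and a median log2 difference of 1.90, and 1 of 12 macrophage genes was called, with all 12 above 0 and a median of 1.38. KPC replicate 1 of day 26 was the highest in both lists and held the highest Nfkbie, Bcl3, Nfkb2, Nfkbia, Tnfaip3 and Ptx3 of its day. KPC replicate 3 of day 21, with 26.2 CPM of macrophage and 526 CPM of endothelial genes, had sums within the control range or below it, and it had 155 CPM of Ptx3, 414 CPM of Nfkbia and 156 CPM of Tnfaip3, against 152 and 180, 412 and 387, and 125 and 141 CPM in the other day 21 KPC libraries. KPC replicate 2 of day 26, with 849 CPM of Nfkbia and 485 CPM of Tnfaip3, had a macrophage sum of 47.8 CPM, above all controls of its day, and an endothelial sum of 338 CPM, below them. With group means removed, r with the log2 macrophage sum ran from -0.67 for Nfkb1 to 0.71 for Nfkbie, with Ptx3 at 0.41 and Tnfaip3 at 0.44. With the endothelial sum it ran from -0.26 for Nfkb1 to 0.74 for Bcl3, with Ptx3 at 0.47 and Tnfaip3 at 0.32. With the progenitor sum it ran from -0.77 for Bcl3 to 0.56 for Nfkb1, with Ptx3 at -0.45 and Tnfaip3 at -0.63. The part of such cells in the results was not tested.

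The rest of the pathway was taken from lists of 85 genes by role and tested. These lists, and that of the pentraxin genes further below, were also chosen with earlier results of these data known. The p-values and counts given for them therefore describe these libraries and are not an independent test. At day 21, 22 of the 69 genes tested rose in KPC libraries and 2 fell (edgeR, adjusted p under 0.05). Over all genes 839 rose and 804 fell, 12.5% of those tested, and shares by role are to be read against that. The median log2 difference was 0.25 against 0.01 over all genes. Textbook NF-kappaB targets held 14 of the 22, of 24 tested. Il6, the cytokine that signals through gp130, rose by 4.04 ± 0.23 (SE, adjusted p 3.0e-06), Ier3, an early-response survival gene, by 2.60 ± 0.14 (adjusted p 2.4e-06), and Ptgs2, the inducible cyclooxygenase, by 1.99 ± 0.14 (adjusted p 1.5e-05). Others that rose were the chemokines Cxcl1 and Cxcl10, the adhesion genes Icam1 and Sele, and Lcn2, Gadd45b, Bcl2l1, Mmp3, Irf1, Steap4 and C3. Lif, another cytokine of the IL-6 family, fell by 1.22 on the log2 scale (SE 0.16, adjusted p 5.7e-04). Ccl2, a monocyte chemokine and a textbook target, stood at 15.1 CPM in KPC libraries and 14.2 CPM in controls (adjusted p 0.80).

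The other roles are given by their counts at day 21, without a test between roles. Among receptors 3 of 10 rose, Tlr4 by 0.83 ± 0.17 (SE), the TNF receptor Tnfrsf1a by 0.60 ± 0.12 and the interleukin-1 receptor Il1r1 by 0.52 ± 0.12 (adjusted p by edgeR 0.011, 0.0065 and 0.019). Among adaptors and kinases 2 of 20 rose, Myd88, the adaptor of those receptors, by 0.74 ± 0.12 and the ubiquitin ligase Birc2 by 0.57 ± 0.15, and Traf5 fell by 0.82 (SE 0.20, adjusted p 0.021). The kinase genes of the IkB kinase complex were not called: Ikbkb was at 76.5 against 74.5 CPM, Chuk at 32.5 against 28.8 CPM and the scaffold Ikbkg at 50.6 against 36.3 CPM. Of 4 ligands tested, Tnfsf13b (BAFF) rose by 1.03 ± 0.15 (adjusted p 1.0e-03) and Il1b passed at very low levels, 0 to 0.236 CPM in controls and 0.729 to 6.4 CPM in KPC libraries. Il1b and Sele are chiefly genes of leukocytes and endothelium, whose marker sums are given above. Among other feedback inhibitors Irak3, a brake on Toll-like receptor signalling, rose by 0.66 ± 0.12 (adjusted p 0.0039), 1 of 8. The counts of adaptors and kinases and of feedback inhibitors were near the 12.5% of all genes. No gene of the remaining Rel and IkB list was called, 0 of 3 by edgeR.

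**Figure D4:**
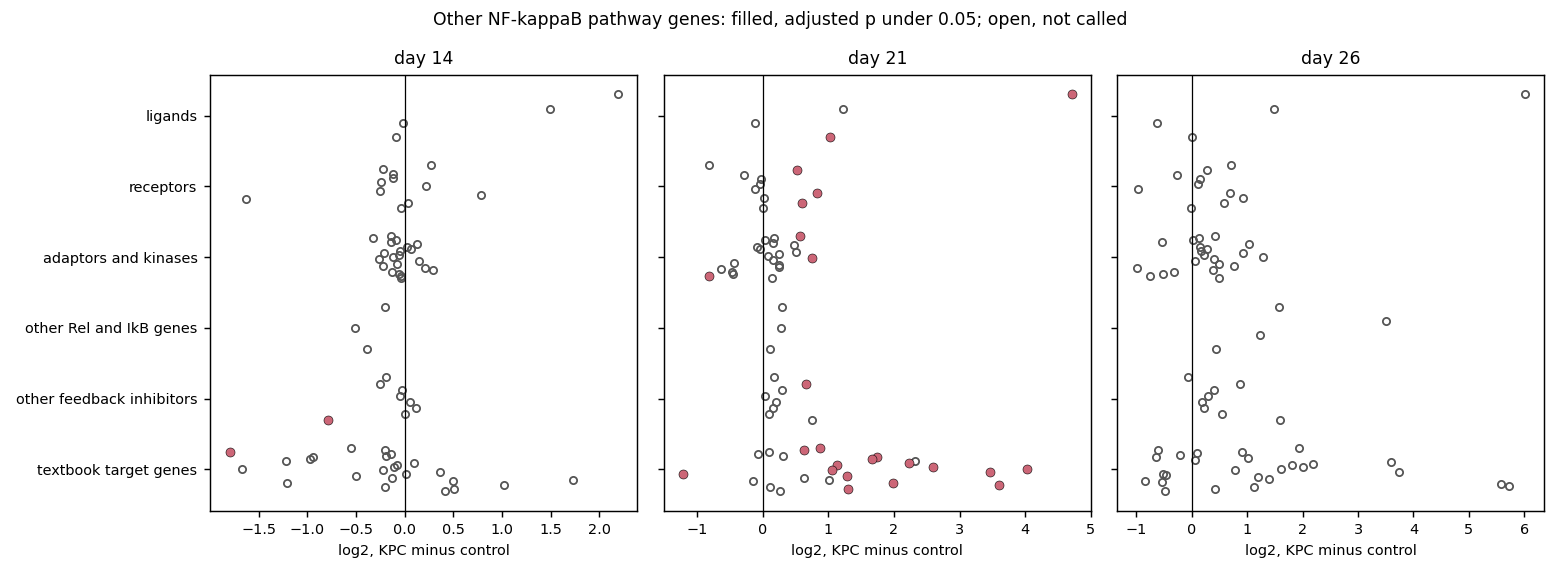
Log2 difference, KPC minus control, of the other NF-kappaB pathway genes by role at days 14, 21 and 26, each panel with its own axis range. Filled points passed an adjusted p of 0.05 (2 genes at day 14, 24 at day 21, 0 at day 26) and open points did not; at day 21 most filled points lie among the target genes.

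At day 14, 0 wider pathway genes rose and 2 of 71 fell, where 1.12% of all genes were called, with a median of -0.09. Ccl2, at 59.2 CPM in controls and 16.7 CPM in KPC libraries, fell by 1.80 on the log2 scale (SE 0.19, adjusted p by edgeR 0.0020). Zc3h12a, an RNase that degrades inflammatory transcripts, went from 42.9 to 24.6 CPM (adjusted p 0.035). Il6 was at 28.4 to 46.1 CPM in controls and 1.64 to 24.3 CPM in KPC libraries, without overlap and with an adjusted p of 0.37. The count of 2 was 4 without control replicate 2 or KPC replicate 4 and 1 without any other library. At day 26, 0 of 73 genes were called by edgeR, where 0.0% of all genes were. Of the 73, 34 had an unadjusted p under 0.05, as did 4508 of all 13157 genes tested. DESeq2 called 24, where it called 21.6% of all genes. The median was 0.40 against 0.00 over all genes. The other Rel and IkB genes (Rela, Rel, Nfkbib and Nfkbid) were all 4 above 0 at day 26. Their median was 1.40, with 3 at an unadjusted p under 0.05 and 0 called by edgeR. Only 3 of these 4 passed the filter on low counts at days 14 and 21. The smallest adjusted p-values were 0.059 for Irak3 (0.86 ± 0.16, SE), 0.059 for Sele and 0.061 for Bcl2l1 (1.94 ± 0.41, SE), an anti-apoptotic target. Without KPC replicate 3, 45 wider pathway genes were called, where 51.6% of all genes were.

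Between control groups, day 21 differed from day 14 in 17 wider pathway genes that were lower and 2 that were higher, of 70 tested, where 23.4% of all genes were called, so the count was near the background. Il6 was lower by -4.05 ± 0.55 (SE, adjusted p by edgeR 0.0014), Ptgs2 by -2.53 ± 0.34 (adjusted p 0.0011), Ccl2 by -2.05 ± 0.19 (adjusted p 1.7e-05) and Cxcl1 by -1.81 ± 0.31 (adjusted p 0.0034). The kinase gene Chuk was lower by -0.90 ± 0.12 and the receptors Tlr4 and Il1r1 by -0.62 ± 0.11 and -0.58 ± 0.11. Tnip1, a partner of A20, and Tnfrsf1b were higher, by 0.49 ± 0.12 and 0.38 ± 0.12. The 19 called genes became 11 without control replicate 1 of day 21 or control replicate 3 of day 14. From day 21 to day 26, 4 of 70 were higher and 0 lower, where 0.478% of all genes were called: Ccl2 (1.87 ± 0.19), Ptgs2 (2.45 ± 0.33), Ier3 (2.02 ± 0.26) and Cxcl10 (2.98 ± 0.39). That count was 1 without control replicate 1 of day 21, 2 without its replicate 3, 7 or 8 without control replicate 2, 3 or 4 of day 26 and 10 by DESeq2. From day 14 to day 26, 6 were higher and 7 lower, where 22.3% of all genes were called, and the 13 became 8 without control replicate 3 of day 14. Il1r1 (-0.76 ± 0.11), Tlr4 (-0.69 ± 0.10) and Chuk (-0.75 ± 0.11) were lower, and Il6 was not called.

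Of the pentraxin genes, the short ones were nearly silent, with Apcs at 0 in every group and Crp at 0 to 0.278 CPM over all libraries. Tnfaip6 and Has1, which encode a hyaluronan-binding protein that works with Ptx3 and a hyaluronan synthase, rose at day 21, by 1.78 ± 0.14 (SE, adjusted p by edgeR 2.5e-05) and 1.69 ± 0.15 (adjusted p 4.2e-05). Has2, a second synthase gene, and the proteoglycan gene Vcan went the other way, by -1.29 ± 0.23 (adjusted p 0.0078) and -1.09 ± 0.14 (adjusted p 4.6e-04), as did the neuronal pentraxin Nptx2 at -2.34 ± 0.52 (adjusted p 0.014). At day 26 Tnfaip6 stood at 179 CPM in KPC libraries and 175 CPM in controls, and Has1 at 184 and 191 CPM. By edgeR 0 of the 8 tested genes of this list were called. An unadjusted p under 0.05 was found for 4 of them, and for 4508 of all 13157 genes tested.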

How the data were processed

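RNA of sorted progenitors was read as stranded paired-end mRNA libraries (59 bases, RNA integrity number 7 or above, per the labels' protocols). The authors deposited whole-number counts per gene symbol, 1 table a day, on mm10; the submitters' processing notes name STAR, Bowtie, bcl2fastq 2.20, R 4.2.1 and DESeq2 1.36.0. The counter, its annotation and its strand setting were not given in the sources used here. Calendar dates had replaced 25 symbols at day 14 and 25 at day 21, none of them among the 10 genes.

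Counts were tested with edgeR 4.0.16 (R 4.3.3): TMM scaling (factors 0.944 to 1.07), filterByExpr (minimum count 10, minimum total 15), robust quasi-likelihood F test, Benjamini-Hochberg over all genes tested, called at an adjusted p under 0.05. SE is the log2 difference divided by the square root of F. KPC was compared with control within a day, and controls between days in 1 fit of the 10 control libraries. CPM values were scaled over all 20 libraries; correlations used log2 CPM with a prior count of 2. The scripts were tested on simulated data. The 10 genes, the lists and the naming rule (the 10 genes, Rela, Rel and the IkB kinase genes, up to 3 called genes per list and direction by p, and the 8 genes most like Ptx3) were chosen with earlier results of these data known. Alternatives were RLE scaling, library size only, no low-count filter, DESeq2 1.42.0, all 20 libraries in 1 fit, the replicate number as a block, each library left out and, at day 26, code 227 only. Replicates are labelled biological; p-values measure the spread between these libraries.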

Additional observations from a re-analysis of the deposited data

Results flagged for a closer look

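In 9 cases the effect of KPC on a gene differed between days at an adjusted p under 0.05 in the edgeR fit of all 20 libraries. They are given as values, since the genes were chosen on these contrasts. The day 21 effect exceeded the day 14 effect by 5.74 on the log2 scale for Ptx3, 2.94 for Nfkbiz and 2.12 for Nfkbia, where 0.644% of all genes were called. The day 26 effect exceeded the day 14 effect by 2.37 for Ptx3, 1.88 for Bcl3, 1.87 for Tnfaip3, 1.51 for Nfkbiz, 1.26 for Birc3 and 1.24 for Nfkbia, where 14.3% of all genes were called. These comparisons share the day 14 libraries. For day 26 against day 14 the count of 6 genes was 2 without KPC replicate 1 or 2 of day 26 and 3 without control replicate 1 of day 14. None of the 10 genes was called for day 26 against day 21 by edgeR. An unadjusted p under 0.05 was found for 3 of them, and for 1825 of all 14141 genes tested. DESeq2 called 1 of the 10, and 57 genes in all. No library stood far from the rest in the 20 cases examined, which were each of the 10 genes in KPC at day 14 and in controls at day 26. Only groups of 4 libraries could be examined in this way. Groups of 3 libraries, KPC at day 26 among them, were not examined.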

How the results depend on the processing

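Of 1260 values of the 10 genes under an alternative, 1247 moved by less than 1 SD and 13 by more. Among values called in the main fit, 0 reversed. A change of sign in a value not called there was not counted as reversed, as for Nfkbie and Nfkb2 at day 26 without KPC replicate 1. The 13 concern Nfkbie, Bcl3, Nfkb1 and Nfkb2 where the day 26 KPC libraries take part. Counts are given for all genes, then the 10, then the wider pathway. KPC at day 14 (149, 1 and 2): no filter 278 and 4 (all genes and pathway), DESeq2 600, 3 and 9, all libraries in 1 fit 2, 0 and 0; single libraries left out, 40 to 255, 0 to 3 and 1 to 4. KPC at day 21 (1643, 5 and 24): 1 fit 436 and 13 (all genes and pathway); left out, 717 to 2644 for all genes. KPC at day 26 (0, 0 and 0): DESeq2 2838, 4 and 24, code 227 only 6287, 6 and 42, 1 fit 4889, 5 and 34; left out, 0 to 6972, 0 to 6 and 0 to 45, with calls only without KPC replicate 3. Controls, day 21 against day 14 (3138, 5 and 19): 1 fit 1204, 3 and 8; left out, 2054 to 3053, 3 to 6 and 11 to 21. Controls, day 26 against day 21 (64, 4 and 4): 1 fit 5, 3 and 1, DESeq2 278, 5 and 10; left out, 5 to 129, 1 to 5 and 1 to 8. Controls, day 26 against day 14 (2992, 3 and 13): 1 fit 983, 0 and 4; left out, 1902 to 2948, 1 to 3 and 8 to 15. Difference in effect, day 21 against day 14 (91, 3 and 3): DESeq2 380, 5 and 12; left out, 24 to 162 for all genes and 1 to 5 for the pathway. Difference, day 26 against day 14 (2024, 6 and 27): left out, 466 to 5900, 2 to 8 and 8 to 46. Difference, day 26 against day 21 (0, 0 and 0): DESeq2 57, 1 and 2; left out, 0 to 3201, 0 to 1 and 0 to 21. The cause of these shifts was not tested, except that leaving out libraries leaves fewer samples.

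Replicate numbers are shared by the groups. Same-numbered control and KPC libraries had correlations of -0.14, -0.10 and -0.20 (day 14), 0.06, -0.06 and -0.04 (day 21) and 0.06, 0.14 and 0.19 (day 26), so the numbers were not taken to pair samples. With the number as a replicate block, day 14 gave 361 genes, 3 of the 10 and 6 of the pathway, day 26 against day 21 in controls 111 genes and 7 of the pathway, the difference of day 21 against day 14 gave 5 of the pathway, that of day 26 against day 14 gave 1330 genes, and that of day 26 against day 21 gave 1 gene. In controls, day 26 against day 21, Ptx3 lost its call under the block (3.54 on the log2 scale) and 3 of the 10 were called. The block moved no other count by over 1.5 times.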
